A study of Macaca mulatta with 24 samples.

Results

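A set of 10 genes that mark microglia was followed through the layers of the lateral geniculate nucleus (LGN), the thalamic relay between retina and visual cortex, after vision through 1 eye had been blocked from birth. They were ITGAM, TYROBP, FGR, CSF1R, CX3CR1, P2RY12, C1QA, C1QB, AIF1 and CD68, and their probe sets are those that the platform annotation assigns to exactly 1 of these symbols. This gave 14 of the 52766 probe sets other than controls, and all 14 were among the 37623 that were tested, for which a minimum of 100 had to be reached on 1 array or more.

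The study captured the 6 layers of both LGNs of 2 rhesus macaques by laser, 1 array of pooled sections per layer, and compared layers driven by the deprived eye with their neighbors driven by the other eye. The large cells of the magnocellular class form layers 1 and 2 and the small cells of the parvocellular class layers 3 to 6, and the thin koniocellular layers between them were left out. The left eye was deprived in both animals, for 2 months with an opaque contact lens in 1 and for 4 months by tarsorrhaphy, in which the lids are sewn shut, in the other. Its layers are 2, 3 and 5 of the ipsilateral LGN and 1, 4 and 6 of the contralateral LGN, so the deprived parvocellular group held 8 arrays, the nondeprived parvocellular group 8, the deprived magnocellular group 4 and the nondeprived magnocellular group 4. The nondeprived layers come from the same 2 deprived animals, and no animal with normal vision in both eyes is included. Each duration was applied to 1 animal by 1 method. Deprivation began at birth, so the 2 animals also differed in age at harvest. Duration, method, age and animal cannot be told apart.

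Microglia are the resident macrophages of the brain. They survey their surroundings with motile processes, take up debris and, in the developing visual thalamus of the mouse, are known to remove weaker retinal synapses with the help of complement. Survival signals reach them through the receptor encoded by CSF1R, neurons address them through CX3CR1 and released nucleotides through P2RY12, and adaptor and kinase proteins such as TYROBP and FGR carry the signals inward.

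Each value is the authors' signal for a probe set, a linear intensity in arbitrary units scaled to the same trimmed mean on each array. A signal depends on how well its probes bind, so levels are compared between arrays and never between genes. In captured tissue, fewer microglia and less RNA per microglial cell cannot be told apart. One array stood apart, layer 2 (deprived, magnocellular) ipsilateral to the deprived eye at 2 months, with a ratio of the 3' to the 5' GAPDH control probes of 50.8, against 1.97 to 14.3 on the other 23 arrays, and a mean correlation with the other arrays of 0.811, against 0.885 to 0.919. Differences are log2 values, deprived minus nondeprived or parvocellular minus magnocellular, from linear models in limma with the LGN as a block, with their standard error (SE). P-values were adjusted over all 37623 probe sets by the method of Benjamini and Hochberg, with a threshold of 0.05. They measure the spread between layers within 4 LGNs of 2 animals, not between animals, and the number of arrays limits the precision.

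**Figure D1:**
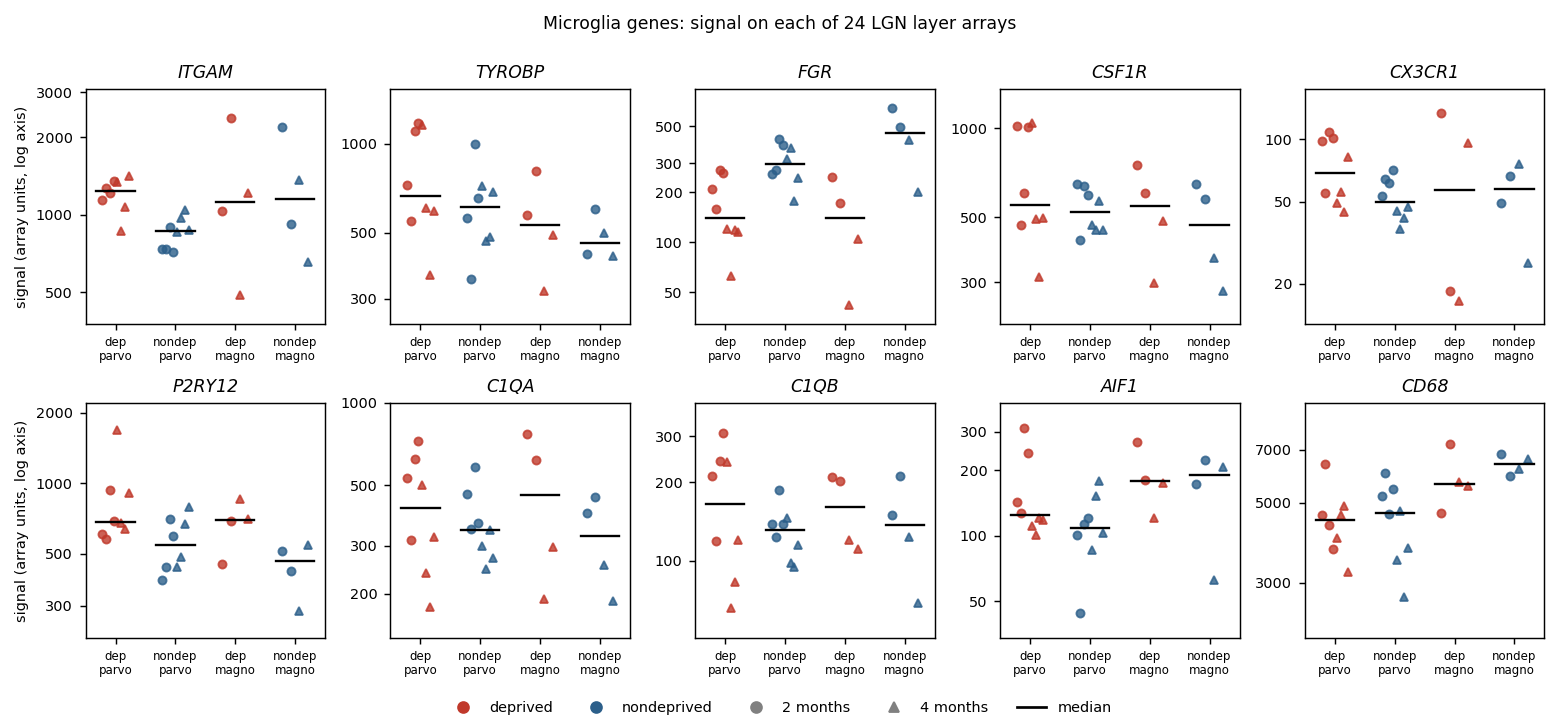
Signal of the brightest probe set of each microglia gene (log axis, array units) on each of the 24 arrays, by group, with deprived layers in red, nondeprived layers in blue, circles for 2 months, triangles for 4 months and a bar at the median. FGR sits lower in deprived than in nondeprived layers of both classes, with some overlap, and ITGAM sits higher in deprived than in nondeprived parvocellular layers.

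In the parvocellular layers, 1 of the 10 genes passed the test, and it fell. FGR, which encodes a Src family kinase of myeloid cells, was lower in the deprived layers, at 0.505 of the nondeprived level, while ITGAM and P2RY12 had the largest differences in the other direction without passing. Over all probe sets tested, 365 passed, or 0.97%, with 220 higher and 145 lower in deprived layers. With the brightest probe set standing for each gene, 9 of 10 differences were positive and their median was 0.28, beside a median of -0.0088 and 48.7% positive over all probe sets tested. CX3CR1 entered the tests only through deprived layers, and without it 8 of 9 were positive, with a median of 0.26. CD68 was near 0, at 0.01. CSF1R, C1QA, C1QB and TYROBP varied together across arrays, so the 10 genes are not separate observations. The median of the 10 genes was 0.16 without the deprived layer 3 ipsilateral at 4 months, 0.40 without the deprived layer 5 ipsilateral at 4 months, and 0.12 and 0.45 in the animals deprived for 4 and for 2 months alone. Unadjusted p was under 0.05 for 3 of the 10 genes (FGR, ITGAM and P2RY12), against 11.4% of all probe sets.

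**Figure D2:**
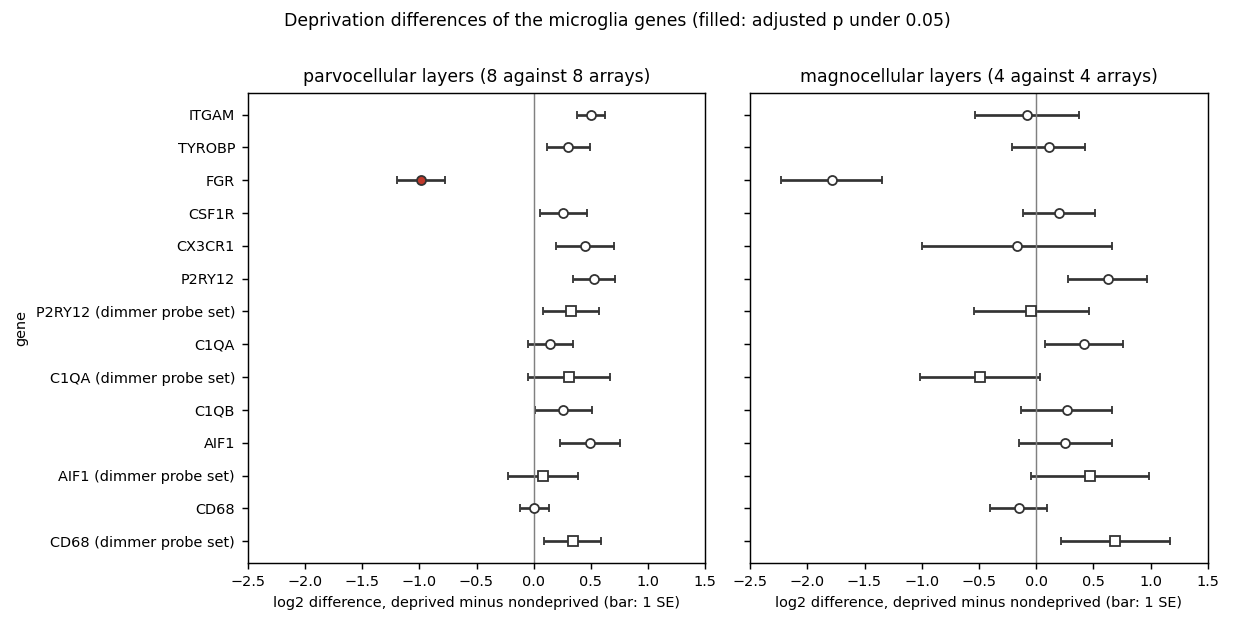
Log2 difference, deprived minus nondeprived, of the 14 probe sets in parvocellular layers (left) and magnocellular layers (right), with bars of 1 SE from limma, circles for the brightest probe set of a gene and squares for a dimmer one. FGR in parvocellular layers is the filled point, the 1 difference past the threshold, and FGR has the lowest difference in both classes.

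FGR (MmuSTS.4458.1.S1_at) read from 62.2 to 273 in the 8 deprived parvocellular layers, with a median of 140, against 176 to 418 and a median of 296 in the 8 nondeprived ones. The groups overlapped: the 3 highest deprived layers, all of the animal deprived for 2 months, exceeded the lowest nondeprived layer, which came from the animal deprived for 4 months. The difference was -0.98 (SE 0.21), with an adjusted p of 0.0279. FGR was lower in the deprived layer of all 8 neighboring pairs (layer 3 with 4 and 5 with 6) and in 4 of 4 LGNs, a direction shared by 9.86% of all probe sets in 4 of 4 LGNs.

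The magnocellular layers showed the same direction. FGR read 173, 247, 105 and 41.5 in the deprived layers (contralateral and ipsilateral at 2 months, then contralateral and ipsilateral at 4 months), against 493, 645, 201 and 413 in their nondeprived neighbors. Again the groups overlapped, by the deprived layer at 247 and the nondeprived layer at 201, but within each LGN the deprived layer was the lower one. The difference of -1.79 (SE 0.44), a ratio of 0.29, had an unadjusted p of 0.00215 and an adjusted p of 0.836. Counting both classes, FGR was lower in the deprived layer of all 12 pairs, which held for 0.51% of all probe sets. FGR also had a mean fold of at least 1.7 and 4 of 4 pairs in 1 direction in magnocellular layers, which held for 6.86% of all probe sets in either direction. This is a looser rule than that of the study, which asked for increase or decrease calls of GCOS in place of the sign of the ratio.

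**Figure D3:**
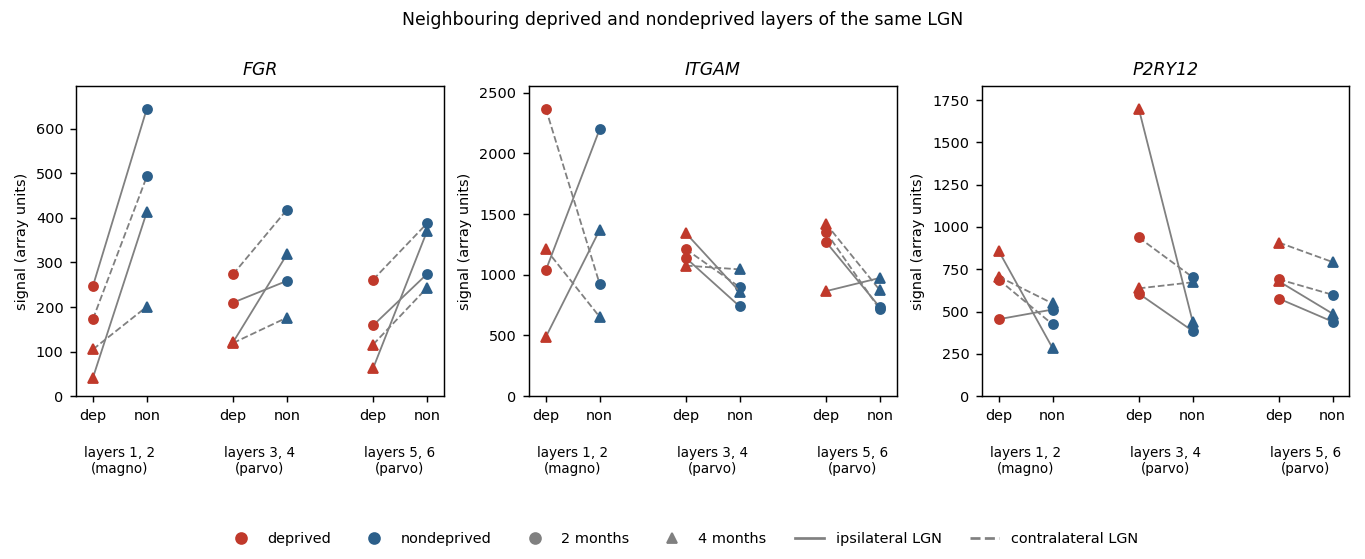
Signal (array units) of FGR, ITGAM and P2RY12 in each deprived layer (red, left of each pair) joined to its nondeprived neighbor in the same LGN (blue), with solid lines for ipsilateral and dashed lines for contralateral LGNs, circles for 2 months and triangles for 4 months. All 12 FGR lines run upward to the nondeprived layer, while for ITGAM the lines of layers 1 and 2 cross.

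How firmly the parvocellular call for FGR held depended on the setting. Its direction did not, though with all 8 pairs lower few settings could change it. The adjusted p was 0.187 without the LGN as a block, 0.13 with each array scaled to the same median, 0.0982 without a trend of the spread, 0.068 with that GAPDH ratio in the model, and 0.473 and 0.334 in the animals deprived for 2 and for 4 months alone, where the differences were -0.57 and -1.40. Leaving out 1 array ended the call in 7 of 16 cases, with adjusted p from 0.05 to 0.072: deprived layers 5 ipsilateral and 4 contralateral at 2 months and 3 ipsilateral and 6 contralateral at 4 months, and nondeprived layers 3 contralateral at 2 months and 4 and 6 ipsilateral at 4 months. In a model over all 24 arrays with layer class as a term, an alternative chosen after the data were seen, the difference was -1.25 (SE 0.22) with an adjusted p of 0.00225, where 2.41% of all probe sets passed.

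FGR is also expressed in neutrophils and monocytes, and 6 markers of these cells were measured. The summed signal of the 6 measured markers was 193 to 677 in deprived layers and 164 to 682 in nondeprived layers of the parvocellular class, and 190 to 567 in deprived and 179 to 304 in nondeprived magnocellular layers; none of the 6 had a mean of 100 or more in a group except MPO, which averaged 123 in deprived magnocellular layers. S100A8 and FPR1 did not reach the minimum for the tests, and 0 of the 4 tested passed in parvocellular layers. The T and B cell markers CD79A and MS4A1 averaged under 100 in all groups. Levels are not comparable between genes, and the part of any of these blood cells in the FGR difference was not tested.

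Other values moved with deprivation in the same arrays. GFAP, the intermediate filament of astrocytes, rose in deprived parvocellular layers with a difference of 1.07 (SE 0.21, adjusted p 0.0184) and was higher in 8 of 8 parvocellular and 3 of 4 magnocellular pairs; the other 3 astrocyte genes tested did not pass, and the summed astrocyte signal was 19262 to 48467 in deprived layers and 21313 to 39505 in nondeprived layers of the parvocellular class. HBA1, a hemoglobin chain of red cells, was lower in the deprived layer of all 12 pairs like FGR, with a parvocellular difference of -0.86 (adjusted p 0.073), whereas the other red cell genes HBB and ALAS2 had differences of 0.18 and 0.46 (adjusted p 0.899 and 0.632). The summed red cell signal was 357 to 1648 in deprived layers and 849 to 1952 in nondeprived layers of the parvocellular class. After removal of LGN means, FGR had r = 0.73 with HBA1 and r = -0.43 with GFAP across the 24 arrays, which share layers, animals and amplification. Deprivation status was not removed, so the differences between deprived and nondeprived layers are part of these values. HBA1 and GFAP are single genes of their lists, and no r is given for the other red cell and astrocyte genes. The part of red cells and astrocytes in the FGR difference was not tested.

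ITGAM (MmugDNA.6976.1.S1_at) encodes the integrin chain CD11b, which with ITGB2 forms complement receptor 3. It read from 865 to 1421 in the deprived parvocellular layers, with a median of 1241, against 715 to 1045 and a median of 867 in the nondeprived ones. Only layer 5 of the ipsilateral side at 4 months fell within the nondeprived range; the other 7 deprived layers lay above it. The difference was 0.50 (SE 0.12), a ratio of 1.41, and its adjusted p of 0.0548 missed the threshold. It was higher in the deprived layer of 7 of 8 pairs, which 7.88% of all probe sets reached or exceeded. ITGAM passed with a mean signal of 100 or more as the filter (adjusted p 0.0405), with the GAPDH ratio in the model (0.024), and without the deprived layer 5 ipsilateral (0.0265) or 4 contralateral (0.0381) at 4 months. It did not pass in the other settings run, with an adjusted p of 0.193 and 0.734 in the animals deprived for 2 and for 4 months alone (differences 0.69 and 0.30), 0.256 with each array scaled to the same median, and 0.505 in the model over all 24 arrays, where the difference was 0.31. Across the 24 arrays, with LGN means removed, ITGAM had r = 0.62 with GFAP. The deprivation difference of both genes is part of that value, and the part of astrocytes in the ITGAM difference was not tested. GFAP is a single gene of its list, and no r is given for the other astrocyte genes. Perivascular macrophages express many of the same genes as microglia, and 0 of their 4 measured markers passed in parvocellular layers, where LYVE1 had -0.37 (adjusted p 0.628) and MRC1 0.16 (0.742) and the summed signal was 7847 to 12454 in deprived and 7212 to 10663 in nondeprived layers. In the same comparison 0 of 4 endothelial, 0 of 1 pericyte, 0 of 1 oligodendrocyte, 0 of 1 oligodendrocyte precursor and 0 of 2 neuronal genes passed, the neuronal genes SYT1 and STMN2 at -0.07 each.

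P2RY12 encodes the purinergic receptor by which microglial processes sense ADP. Its brighter probe set (MmugDNA.13354.1.S1_at) read from 577 to 1699 in the deprived parvocellular layers, with a median of 685, against 385 to 792 and a median of 543 in the nondeprived ones, and the ranges overlapped widely. The value of 1699 came from layer 3 on the ipsilateral side at 4 months, and the next highest deprived layer read 938; without it the difference was 0.34 (adjusted p 0.324). With all arrays the difference was 0.53 (SE 0.18, adjusted p 0.217), with the deprived layer higher in 7 of 8 pairs. The magnocellular values were 688, 455, 706 and 858 in deprived layers (contralateral and ipsilateral at 2 months, then contralateral and ipsilateral at 4 months), against 424, 512, 548 and 284, a difference of 0.62 (SE 0.35, adjusted p 0.836) with 3 of 4 pairs higher. The exception was the pair with the array that stood apart, and without that array the difference was 0.89 (adjusted p 0.822). The dimmer P2RY12 probe set (MmuSTS.543.1.S1_at) differed by 0.32 in parvocellular layers (adjusted p 0.698).

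CX3CR1 and CSF1R are the other receptors. CX3CR1 (MmuSTS.3995.1.S1_at), the fractalkine receptor, was dim: it reached 100 on 3 of 24 arrays, all of deprived layers, and so entered the tests only through them. It read 44.7 to 108 in deprived layers and 36.9 to 71.4 in nondeprived layers of the parvocellular class, a difference of 0.45 (SE 0.25, adjusted p 0.551), higher in 7 of 8 pairs. Without CX3CR1, 8 of 9 genes had a positive parvocellular difference, with a median of 0.26. CSF1R (MmuSTS.3965.1.S1_at), the receptor for CSF1 and IL34, read 313 to 1047 in deprived layers and 417 to 646 in nondeprived layers of the parvocellular class, a difference of 0.26 (SE 0.21, adjusted p 0.717). The deprived values spread to both sides of the nondeprived range.

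The adaptor TYROBP (MmugDNA.7359.1.S1_s_at), which carries the activating motif for TREM2 and related receptors, behaved much like CSF1R. It read 359 to 1176 in deprived parvocellular layers, with a median of 668, against 350 to 999 and a median of 611 in nondeprived ones, a difference of 0.30 (SE 0.19, adjusted p 0.601). C1QA and C1QB encode chains of C1q, which starts the classical complement pathway, and lie close together on the same chromosome in the RefSeq annotation of the macaque. C1QA (MmuSTS.1957.1.S1_at) read 179 to 725 in deprived layers and 247 to 581 in nondeprived layers of the parvocellular class, a difference of 0.15 (SE 0.20), and C1QB (MmuSTS.1397.1.S1_at) read 65.9 to 309 in deprived and 95.1 to 187 in nondeprived ones, a difference of 0.26 (SE 0.25). Neither passed (adjusted p 0.865 and 0.786), and in the animal deprived for 4 months alone both differences were close to 0.

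AIF1 (MmuSTS.2776.1.S1_at) encodes IBA1, the calcium-binding protein that is the usual stain for microglia. It read 101 to 313 in deprived parvocellular layers, with a median of 124, against 43.9 to 178 and a median of 108 in nondeprived ones. At this probe set the ranges differed between the 2 animals, though the test between durations did not pass (adjusted p 0.973). At 2 months the 4 deprived layers (127 to 313) lay above all 4 nondeprived ones (43.9 to 120). At 4 months the deprived layers (101 to 120) fell inside the nondeprived range (85.8 to 178). The share of all probe sets that separate in this way in 1 animal was not counted. The overall AIF1 difference was 0.49 (SE 0.26, adjusted p 0.507). At the dimmer AIF1 probe set (MmugDNA.10834.1.S1_at) the difference was 0.16 at 2 months alone and 0.008 at 4 months alone. CD68, a lysosomal protein of phagocytes, had a difference of 0.01 (SE 0.12, adjusted p 0.994) at its brighter probe set (MmugDNA.11447.1.S1_at).

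In the magnocellular layers 0 of the 10 genes and 0% of all 37623 probe sets passed, and at an unadjusted p under 0.05 there were 2138 probe sets (5.68%), of the 10 genes FGR alone. The genes had 6 positive differences of 10 and a median of 0.15, beside 60.1% positive and a median of 0.13 over all probe sets. The largest positive difference was that of the dimmer CD68 probe set (MmuSTS.3489.1.S1_at), 0.69 (SE 0.47, adjusted p 0.837), followed by the brighter P2RY12 probe set at 0.62. Without the array that stood apart the CD68 difference was 0.32. The other 11 probe sets lay between -0.49 and 0.47, with adjusted p from 0.862 to 0.991.

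The difference between durations was tested in the parvocellular layers as the deprivation difference at 4 months minus that at 2 months. Of the 10 genes 0 passed, as did 0% of all probe sets, and 1465 (3.89%) had an unadjusted p under 0.05. AIF1 and FGR were the 2 of 10 genes at that level. AIF1 differed by -1.28 (SE 0.45, adjusted p 0.973), from differences of -0.15 at 4 months and 1.13 at 2 months. FGR differed by -0.83 (SE 0.39, adjusted p 0.973), from -1.40 at 4 months and -0.57 at 2 months. At 4 months alone 6 of the 10 genes had a positive difference, and at 2 months alone 8. The deprivation difference also did not pass between classes for any of the 10 genes: 0% of all probe sets were called and 2540 had an unadjusted p under 0.05. FGR had 0.80 (SE 0.44, adjusted p 0.76) and ITGAM 0.58 (SE 0.41, adjusted p 0.804), parvocellular minus magnocellular, and the other 12 probe sets lay between -0.39 and 0.80.

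Between the layer classes, 1 of the 10 genes passed, against 3.58% of all probe sets (844 higher and 504 lower in parvocellular layers). The brighter CD68 probe set (MmugDNA.11447.1.S1_at) read 2740 to 6401 in the 16 parvocellular layers, against 4677 to 7261 in the 8 magnocellular layers. It was lower in parvocellular layers by 0.46 (difference -0.46, SE 0.12, adjusted p 0.0269), and the ranges overlapped. The call was lost with each array scaled to the same median (adjusted p 0.446), in the animals deprived for 2 months and 4 months alone (0.452 and 0.077) and without layer 1 contralateral at 2 months (0.0612) or layers 1 ipsilateral (0.0591), 1 contralateral (0.0638) or 2 contralateral (0.0819) at 4 months, and was kept without the array that stood apart (0.00333). The dimmer CD68 probe set, with -0.24, did not pass (adjusted p 0.674), and the 2 probe sets had r = -0.31 across arrays, so the level of CD68 rests on which one is read.

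TYROBP had the next smallest p, 0.39 higher in parvocellular layers (SE 0.17, adjusted p 0.234); with CD68 it made 2 of 10 genes with an unadjusted p under 0.05, against 16.2% of all probe sets. The other 12 probe sets differed by -0.40 to 0.35 between classes. The median of the 10 genes was 0.03, beside -0.03 over all probe sets.

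**Figure D4:**
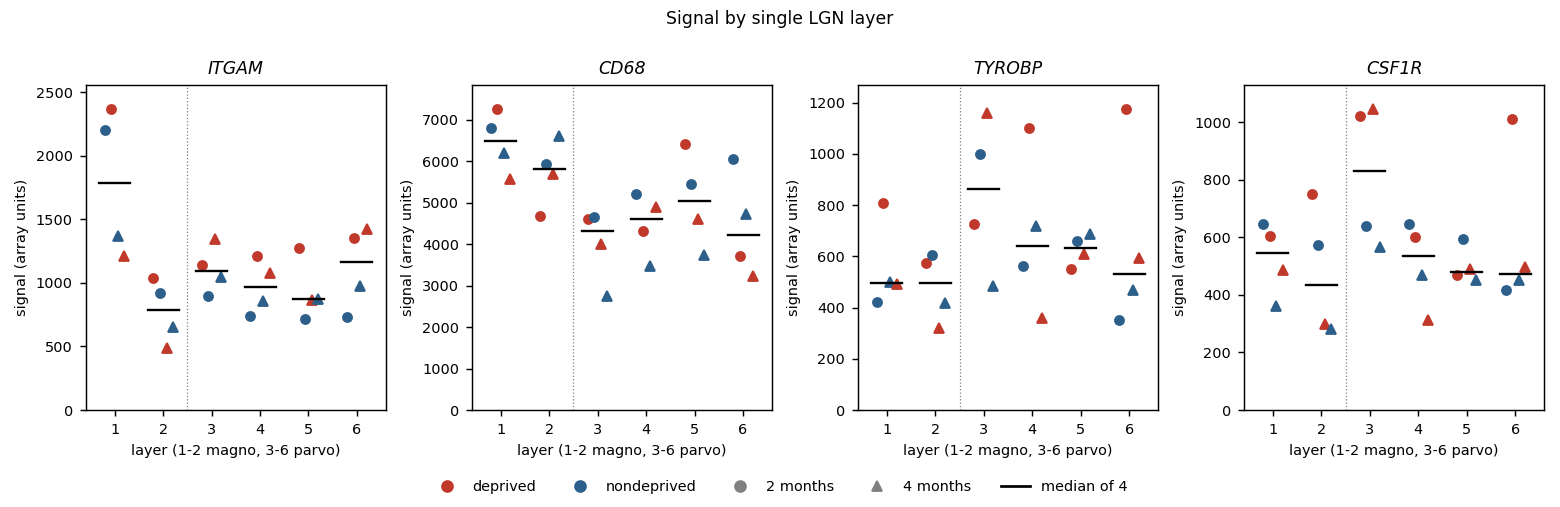
Signal (array units) of ITGAM, CD68, TYROBP and CSF1R by layer number, 4 arrays a layer, with deprived layers in red, nondeprived layers in blue, circles for 2 months, triangles for 4 months and bars at the median of 4. The 4 layer 1 arrays of ITGAM lie above the 4 of layer 2, and deprived and nondeprived arrays are among both.

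Among single layers, ITGAM stood out for layer 1. Its 4 arrays read 2369 and 1212 in the deprived contralateral LGNs at 2 and 4 months and 2201 and 1371 in the nondeprived ipsilateral ones, against 1038, 487, 924 and 653 in layer 2. Layer 1 did not overlap layer 2, though it did overlap layers 3, 5 and 6. The share of all probe sets with such a gap between 2 layers was not counted. In order of the medians, layer 1 (1786) was followed by layer 6 (1164), layer 3 (1092), layer 4 (968), layer 5 (869) and layer 2 (788), and the ranges of the last 5 overlapped. The F test over 6 layer numbers gave an unadjusted p of 0.00278 and an adjusted p of 0.155, where 0.758% of all probe sets passed and 10.3% had an unadjusted p under 0.05. CD68 followed with an adjusted p of 0.318, and its medians ran from 6492 in layer 1 and 5808 in layer 2 to 4221 in layer 6. For the other 12 probe sets the adjusted p was 0.534 to 0.97. For CSF1R and TYROBP the highest median was that of layer 3, at 830 and 863.

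**Figure D5:**
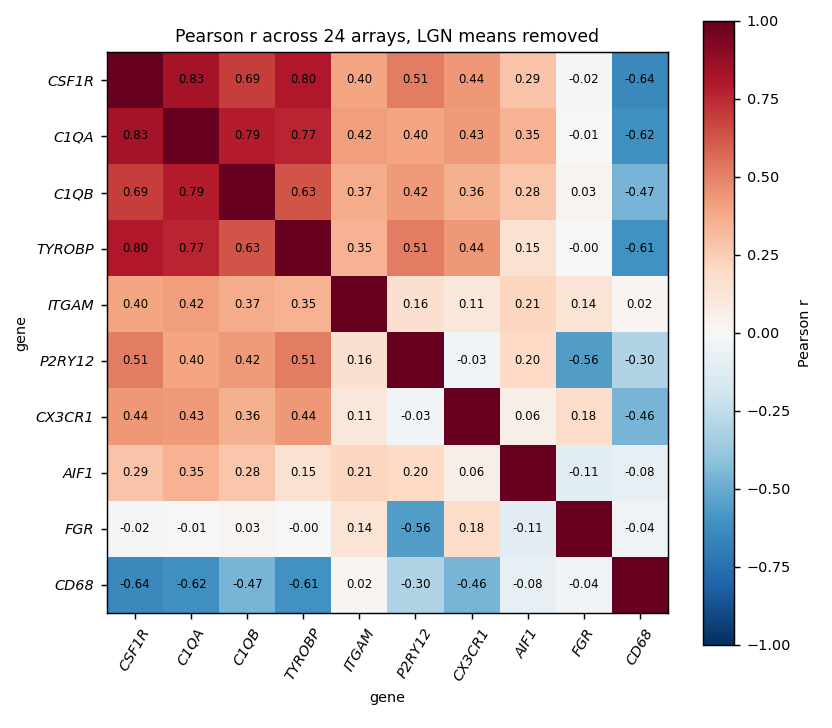
Pearson r between the brightest probe sets of the 10 genes across 24 arrays, on log2 signals with the mean of each LGN removed, as a description without a test. CSF1R, C1QA, C1QB and TYROBP form a block with r from 0.63 to 0.83, FGR is near 0 against that block, and CD68 is negative against it.

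Across the 24 arrays, with LGN means removed, 4 genes varied together. CSF1R, C1QA, C1QB and TYROBP had r from 0.63 to 0.83 over their 6 pairs, with the strongest between CSF1R and C1QA, while the other 85 pairs among the 14 probe sets had r from -0.64 to 0.66 with a median of 0.14. These are correlations over arrays that share LGNs, amplification and depth of signal: C1QA had r = 0.75 and C1QB r = 0.53 with the log2 median signal of the array, CSF1R and TYROBP r = 0.35 each. ITGAM had r = 0.35 to 0.42 with the 4 genes and P2RY12 r = 0.40 to 0.51. FGR had r of at most 0.03 in size with each of the 4 and r = -0.56 with P2RY12. CD68 had r = -0.64 with CSF1R, -0.62 with C1QA and -0.61 with TYROBP. Deprivation status was not removed from any of these correlations. CSF1R, C1QA, C1QB and TYROBP were grouped from these same r values, so their contrast with the other 85 pairs is a description and no test. Those 85 pairs include the dimmer probe sets.

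Probe sets of the same gene rarely moved together, and the dimmer ones reached 100 on 3 to 9 of 24 arrays. The 2 probe sets of P2RY12 had r = 0.39, those of AIF1 r = 0.09 and those of C1QA r = -0.08. The dimmer AIF1 (MmugDNA.10834.1.S1_at) and C1QA (MmugDNA.2736.1.S1_at) probe sets differed by 0.08 and 0.31 in deprived parvocellular layers (adjusted p 0.958 and 0.832), and the dimmer CD68 probe set by 0.34 (adjusted p 0.683).

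The genes outside the 10 most like their mean standardized signal across the 24 arrays were DGKA (r = 0.87), ADGRB2 (r = 0.87), RAB34 (r = 0.86), NGEF (r = 0.85) and GPR17 (r = 0.85), followed by GPR108, CHCHD5, KCNIP3, LRP10 and DDAH2 with r of 0.81 or more. None of these is a usual microglia marker, and the mean of the 10 genes itself had r = 0.52 with the median signal of the array.

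Of other genes of microglial function, 1 of 39 tested passed in the parvocellular deprivation comparison, against 0.97% of all probe sets. Among homeostatic microglia genes 0 of 5 passed, with SLC2A5, a fructose transporter, at -0.27 (adjusted p 0.245) and GPR34 at 0.33 (0.779); TMEM119 averaged 32.5 in deprived and 35.2 in nondeprived parvocellular layers, and TMEM119 and CD33 averaged under 100 in all groups. Among myeloid identity and signaling genes 0 of 10 passed, the nearest being the kinase SYK (-0.33, adjusted p 0.248) and the phosphatase PTPRC, also known as CD45 (0.43, 0.544). Among complement and engulfment genes 0 of 8 passed, with the C5a receptor C5AR1 at 0.62 (0.303) and protein S, PROS1, at 0.36 (0.411). Of these 8 genes, 7 had positive differences. For the other lists, positive differences numbered 2 of 5 (homeostatic), 6 of 10 (myeloid), 6 of 12 (activation) and 1 of 4 (ligands). Over all probe sets 48.7% were positive.

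The gene that passed was HLA-DPA1 (annotated MAMU-DPA in the macaque), a class II antigen presentation gene and 1 of 12 genes of activation tested. It fell in deprived parvocellular layers, with a difference of -0.87 (SE 0.17, adjusted p 0.018), in 8 of 8 pairs. In magnocellular layers it was higher in the deprived layer of 1 of 4 pairs. Its level differed between the animals: in the 2 classes together it read 566 to 1294 in deprived and 1315 to 2339 in nondeprived layers at 2 months, and 49.7 to 202 in deprived and 96.8 to 215 in nondeprived layers at 4 months. At 2 months the groups did not overlap, and at 4 months they did. The share of all probe sets with such a gap in 1 animal was not counted. The other class II genes HLA-DRA and CD74 averaged under 100 in all groups, with parvocellular differences of 0.20 and 0.12 (adjusted p 0.861 and 0.938). Of the genes for ligands of microglial receptors, 0 of 4 passed, and CX3CL1, the ligand of CX3CR1, had -0.35 (adjusted p 0.861) and CD47, the signal against engulfment, -0.01 (0.993).

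In the magnocellular layers 0 of these 39 genes and 0% of all probe sets passed. Between classes 3 of 39 passed, against 3.58% of all probe sets. SYK was higher in parvocellular layers (0.70, adjusted p 0.00219), and SLC2A5 (-0.45, 0.00498) and SPP1, osteopontin, (-0.47, 0.0127) were lower. SYK also passed the F test over layer numbers (adjusted p 0.0447).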

How the data were processed

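RNA of 24 laser-captured LGN layers was amplified in 2 rounds and hybridized to rhesus arrays, 1 array a sample. The authors computed the deposited values with GCOS, a linear signal intensity per probe set with every array brought to a mean of 500.04 after 2% of the values had been trimmed from either end. The authors' change calls are not used here. Symbols come from the platform annotation, and no genome build is given for it. Groups follow the labels and the layer scheme of the study.

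Signals under 1 were set to 1 and taken to log2. Probe sets of 100 or more in at least 1 of 24 arrays were fitted in R 4.3.3 with limma 3.58.1 (lmFit, eBayes with a trend) and the LGN as a fixed block. The code was tested on simulated data. The block is the LGN, from which the layers compared were captured. Every microglia probe set is named, and a gene with several is counted by the one with the highest mean log2 signal. In each list of other genes those called are named, or else the 2 with the smallest p. The members, the lists (microglial functions, and perivascular macrophages, neutrophils and monocytes, T and B cells, red cells, endothelium, pericytes, astrocytes, oligodendrocytes, their precursors and neurons) and the tests were chosen with earlier results of these data known. Alternatives were other scalings, floors, filters, blocks and models, each array left out and each animal alone.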

Additional observations from a re-analysis of the deposited data

Results flagged for a closer look

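P2RY12 in layer 3 of the ipsilateral LGN at 4 months lay far above the other 7 deprived parvocellular layers with both of its probe sets. The brighter one read 1699, against 577 to 938 in the others, and the gap to the nearest made 0.678 of the range of the group. The dimmer one read 237, against 56.9 to 140, with a gap of 0.538 of the range. The limit was Dixon's critical value for a group of 8. Of 56 combinations of probe set and group these were the 2 set apart, where chance sets apart about 1 in 20 groups. Without this array the parvocellular P2RY12 difference at the brighter probe set was 0.34 (adjusted p 0.324), against 0.53 with all arrays.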

How the results depend on the processing

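The number of the 10 genes called for deprivation in parvocellular layers, 1 as reported, was 0 with each array scaled to the same median, signals under 50 set to 50, no trend, no LGN as a block, neighboring layers as the block, and either animal alone; it was 2 with a mean signal of 100 or more, and 0 to 2 without 1 array. Dropping the LGN as a block left every parvocellular estimate as it was (FGR -0.98). For parvocellular against magnocellular layers the number called, 1, was 0 with the same median, no trend, no LGN block, either animal alone and probe sets averaged per gene, and 0 to 1 without 1 array. In magnocellular layers the number, 0, was 1 (FGR) with a mean fold of at least 1.7 and 4 of 4 pairs in 1 direction, where the sign of the ratio stands in for the change calls that the study required. In these settings the cause was not tested. FGR was negative in parvocellular layers in every setting run, and 6 to 9 of the 10 genes were positive there. Changes of block, trend or filter cannot alter these estimates. With FGR lower in all 8 pairs, few other settings could change its sign.

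Some differences changed sign between settings, among them differences that were not near 0. CD68 at its brighter probe set, 0.01 in parvocellular layers, was -0.0942 with the GAPDH ratio as a covariate, -0.19 at 2 months alone, -0.0473 over all 24 arrays and -0.077 to 0.0571 without 1 array. At 4 months alone AIF1 was -0.15, C1QA -0.000261 and C1QB -0.000178, against 0.49, 0.15 and 0.26 with both animals. The dimmer C1QA probe set was -0.19 at 2 months alone and -0.053 to 0.437 without 1 array, and the dimmer AIF1 probe set -0.0299 to 0.255 without 1 array. Signals near 100 (CX3CR1, and the dimmer probe sets) limit what small differences show.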

Other observations

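Levels of the microglia genes differed between the 2 animals, which differ in duration and method of deprivation and in age at harvest as well. C1QA had a median of 263 over the 12 layers at 4 months and 498 over the 12 layers at 2 months, CSF1R 461 at 4 months and 621 at 2 months, and FGR 148 at 4 months and 267 at 2 months. The dimmer P2RY12 probe set ran the other way, with a median of 115 at 4 months and 62.8 at 2 months, and 71 to 237 at 4 months against 23.1 to 88.6 at 2 months. No test between animals can be made with 1 animal each.

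SLC2A5, a fructose transporter that marks homeostatic microglia, and HBA1 were each lower in the deprived layer of all 12 neighboring pairs, as FGR was. SLC2A5 had r = 0.57 with FGR across the 24 arrays after removal of LGN means, but r = -0.55 with P2RY12 and r = -0.12 with ITGAM. Deprivation status was not removed, so the lower signal in deprived layers that SLC2A5 and FGR share is part of the value of 0.57. Of the 5 homeostatic genes tested, 2 had positive parvocellular differences. These genes were singled out after their values were seen.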
